A study of Arabidopsis thaliana with 6 samples.

Results

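The nuclear genes of the plastid ribosomal proteins were examined in Arabidopsis thaliana seedlings treated with an N-acylethanolamine. The set holds 38 genes, taken by their TAIR gene identifiers. Earlier results of these data were known when the set was chosen. Of these, 9 encode proteins of the small (30S) subunit, 24 encode proteins of the large (50S) subunit, and 5 encode plastid-specific ribosomal proteins, which have no counterpart in the core set of bacterial ribosomal proteins. They lay on 37 of the 32424 loci of the deposited table, because RPL12-A (AT3G27830) and RPL12-C (AT3G27850) were joined in 1 locus. All 37 loci passed the filter on low values (1 FPKM or more on average over all 6 libraries), and they are among the 18194 loci tested.

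Messenger RNA of whole wild-type Col-0 seedlings was sequenced after 1 h in liquid ½ MS medium with sucrose at 1%. The medium of the treated group held N-linolenoylethanolamine (NAE 18:3), the ethanolamide of linolenic acid, at 100 µM, and that of the control group held the solvent DMSO at 0.07%. How much DMSO was in the NAE 18:3 medium is not given in the labels, and for the age at which seedlings were moved into it the growth text has 3 days but the treatment text 4 days. Each group had 3 libraries, which the labels call biological replicates.

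Chloroplasts translate their own small genome on ribosomes of the bacterial kind. The ribosomal RNAs and some of the proteins come from that genome, and the remaining proteins are made in the cytosol from nuclear genes and imported, so that building a plastid ribosome needs both genomes. In seedlings these ribosomes supply the core proteins of the photosystems and the large subunit of Rubisco while chloroplasts develop, and loss of many of the nuclear genes stops the embryo or leaves the plant pale.

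Levels are given in FPKM, which scales the fragments of a locus by its length and by the fragments of its library, so levels can be compared between genes. Absolute depth is unknown, and steps in the low values put the depth of the libraries between 0.482 and 1.27 of that of NAE 18:3 replicate 1, the shallowest being DMSO replicate 1. The DMSO libraries stood at 0.48, 0.75 and 0.97, and NAE 18:3 replicates 2 and 3 at 0.99 and 1.27. By these estimates each control was shallower than each treated library, so depth and treatment cannot be told apart. The estimates are rough, as 21.3% to 26.1% of the low loci compared sat at the common step. The summed FPKM of a library, without 2 loci that stood above 100000 FPKM in a single library, was 1.45 times as high in NAE 18:3 as in DMSO, a difference that FPKM scaling does not remove. Each direction below therefore stands for the deposited scale, and it is set beside 4 other scales wherever it turns. These bring the libraries to one upper quartile, to one distribution (quantile normalization), to trimmed-mean (TMM) factors, or to one summed FPKM. In whole seedlings, fewer cells of a type and less RNA per cell cannot be told apart.

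On the deposited scale 32 of the 37 loci were higher after NAE 18:3, 1 was lower and 4 were not called (limma, Benjamini-Hochberg adjusted p under 0.05 over all loci tested). Of all loci tested, 83.2% were called, so a call in itself is no mark of these genes, and 44.1% of all loci were higher and 39.2% lower. The values of the groups did not overlap at 32 of the 37 loci, against 84.6% of all loci. The rises were mostly small. The median log2 change was 0.54, with quartiles of 0.36 and 0.63, whereas that of all tested loci was 0.057, with quartiles of -0.64 and 0.73. The standard deviation of the log2 change was 0.49 over the 37 loci, 0.30 without PSRP1, and 1.28 over all loci tested. The median member stood above 98.4% of all tested loci in DMSO. No background of like level was taken, so these spreads are not matched for level. Changes of at least 2-fold were found at 2 loci, PSRP1 and RPL31, and 29 loci lay between 0.20 and 0.95 on the log2 scale.

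How many members count as higher depended on the scale. With upper-quartile scaling 24 were higher and 8 lower, with a median of 0.18, while 84.4% of all loci were called, 32.2% higher and 52.2% lower. With quantile normalization 30 members were higher and 4 lower (median 0.39), beside 82.4% of all loci called, 39.8% higher and 42.6% lower. With TMM factors 32 were higher and 4 lower (median 0.47), beside 83.3% of all loci called, 42% higher and 41.3% lower. With equal summed FPKM, 10 were higher, 16 lower and 11 not called, and the median was -0.0033, beside 85.8% of all loci called, 26.6% higher and 59.3% lower. The distance of the members' median above the median of all loci moved less, from 0.48 on the deposited scale to 0.43, 0.42, 0.47 and 0.41 on the upper-quartile, quantile, TMM and equal-sum scales. On all 5 scales, 10 members were called higher, namely PSRP1, RPL31, RPS13, PSRP5, RPS21, RPS1, RPL29, RPL17, RPL1 and RPL15, and RPL19-2 was called lower. The share of all loci called alike on all 5 scales was not taken. These 10 members are those called higher with equal summed FPKM, where 26.6% of all loci were higher. The upper-quartile, TMM and equal-sum scales lower NAE 18:3 values against DMSO values by construction, so lower calls there add no separate support for RPL19-2.

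**Figure D1:**
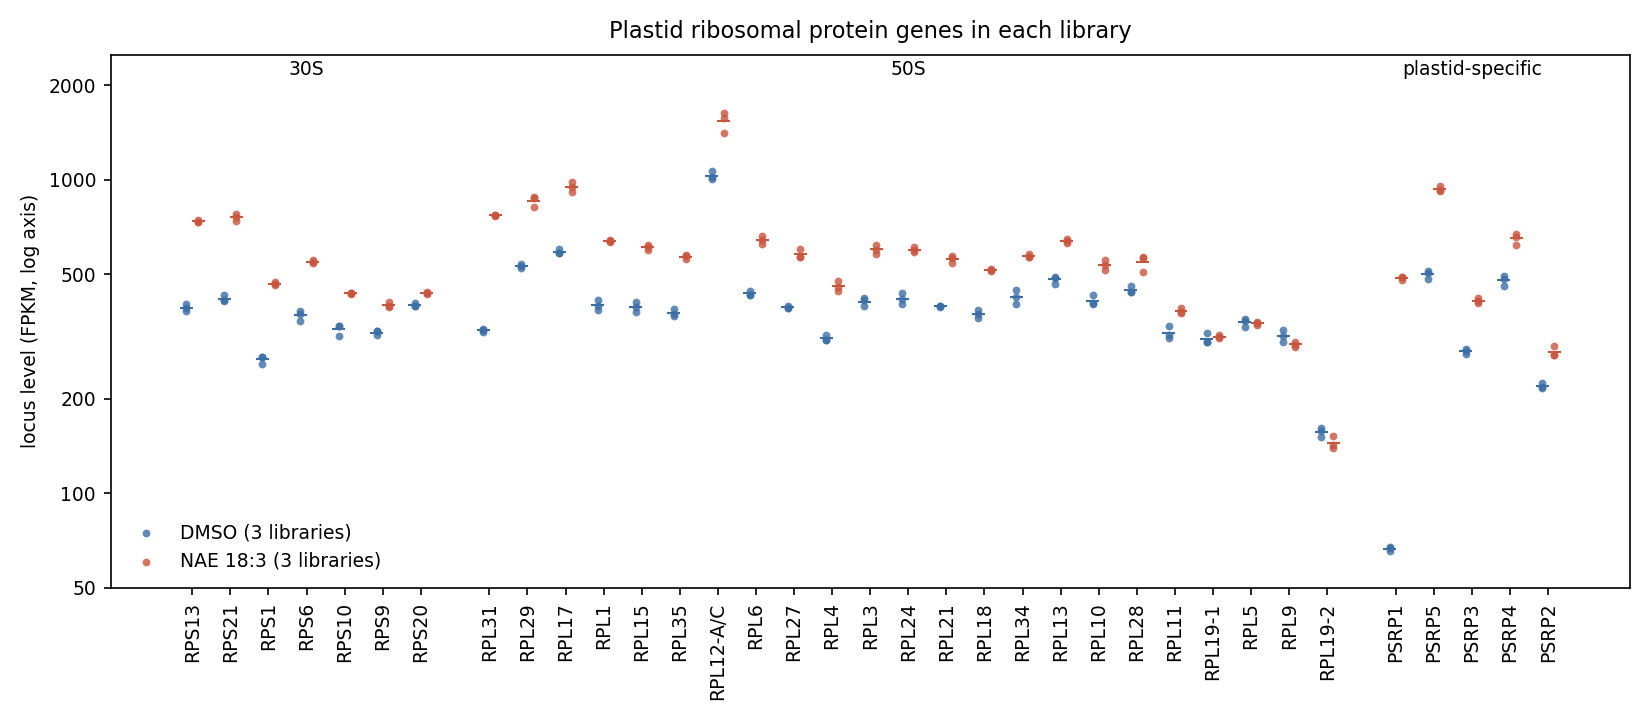
Level of each plastid ribosomal protein locus in FPKM (log axis) in the 3 DMSO libraries (blue) and the 3 NAE 18:3 libraries (red), grouped by subunit and ordered by log2 change (2 of the 37 loci are not shown); short lines are group means. PSRP1 is the lowest locus in DMSO at 66.6 FPKM and stands at 486 FPKM after NAE 18:3, while most other loci shift by less than 2-fold on this deposited scale.

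The proteins of the 30S subunit, which decodes the message, were higher at 8 of 9 loci, with a median log2 change of 0.57. RPS10, RPS9 and RPS20 turned lower with equal summed FPKM, and RPS9 and RPS20 also with upper-quartile scaling. The largest change was that of RPS13 (AT5G14320), which in bacteria sits in the head of the subunit at the face toward the 50S. It stood at 389.6, 380.2 and 403 FPKM in DMSO and at 734, 731 and 743 FPKM in NAE 18:3. All treated libraries lay far above all control libraries, and the log2 change was 0.91 ± 0.030 (standard error, limma, Benjamini-Hochberg adjusted p = 8.6e-09). RPS21 (AT3G27160), a protein of the platform where the message is held in bacteria, stood at 412, 412 and 429 FPKM in DMSO and at 780.2, 737 and 760.2 FPKM in NAE 18:3. Its groups were as clearly apart, with a log2 change of 0.86 (standard error 0.032, limma, Benjamini-Hochberg adjusted p = 2.1e-08). RPS1 (AT5G30510), an S1-domain protein thought to help the ribosome take hold of mRNA, stood at 272, 271 and 258 FPKM in DMSO and at 471, 462 and 465 FPKM in NAE 18:3. It began as the lowest of the 30S genes and had passed RPS20, RPS10 and RPS9 after treatment, with a log2 change of 0.80 (standard error 0.030, limma, Benjamini-Hochberg adjusted p = 2.2e-08).

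The smaller rises of the 30S group were those of RPS20 and RPS9. RPS20 (AT3G15190), which binds the 16S ribosomal RNA early in assembly in bacteria, stood at 403, 397 and 397 FPKM in DMSO and at 432, 438 and 436 FPKM in NAE 18:3. Its libraries agreed so closely within each group that a log2 change of 0.13 passed (standard error 0.025, limma, Benjamini-Hochberg adjusted p = 0.0014). That change turned to -0.23 with upper-quartile scaling and to -0.41 with equal summed FPKM, and its call was lost with quantile normalization, at 0.061. RPS9 (AT1G74970), a protein of the head, stood at 319.9, 329 and 328 FPKM in DMSO and at 395, 393 and 406 FPKM in NAE 18:3. The groups did not overlap, and the log2 change of 0.29 (standard error 0.028, limma, Benjamini-Hochberg adjusted p = 1.2e-05) turned to -0.062 with upper-quartile scaling and to -0.25 with equal summed FPKM.

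RPS6 and RPS10 lay between these. RPS6 (AT1G64510), of the platform, rose from 369.7 ± 14.9 to 547 ± 6.3 FPKM (mean ± SD, n = 3 each, log2 change 0.57). RPS10 (AT3G13120), of the head, rose from 334 ± 13.5 to 434 ± 2.84 FPKM (log2 change 0.38). Its call was lost with upper-quartile scaling, at 0.028, and it was called lower with equal summed FPKM, at -0.16. The call of RPS6 was lost with equal summed FPKM, where its log2 change was 0.026.

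Of the 23 loci of the 50S subunit, which forms the peptide bond and carries the exit tunnel, 19 were higher, 1 was lower and 3 were not called, with a median log2 change of 0.52. In this group RPL28, RPL11 and RPL19-1 changed sign with upper-quartile scaling, the RPL12 locus and RPL19-1 with quantile normalization, RPL19-1 with TMM factors, and RPL24, RPL21, RPL18, RPL34, RPL13, RPL10, RPL28, RPL11 and RPL19-1 with equal summed FPKM. RPL31 (AT1G75350), which bridges the subunits in bacteria, stood at 331, 327 and 335 FPKM in DMSO and at 771, 771 and 768 FPKM in NAE 18:3. It moved from the level of rank 27 among the 37 loci to rank 5, the groups being separated by more than 2-fold. The log2 change was 1.22 ± 0.025 (standard error, limma, Benjamini-Hochberg adjusted p = 5.7e-10), and it was 0.68 with equal summed FPKM, the scale that lowers the members most. RPL29 (AT5G65220), a protein beside the exit of the tunnel in bacteria, stood at 524, 538 and 532 FPKM in DMSO and at 884, 817 and 873 FPKM in NAE 18:3. Its log2 change was 0.69 (standard error 0.035, limma, Benjamini-Hochberg adjusted p = 1.6e-07), with every treated library above every control. RPL17 (AT3G54210), also near the tunnel exit, stood at 583, 602 and 583 FPKM in DMSO and at 949.9, 913 and 982 FPKM in NAE 18:3. It was the third most abundant locus of the set in DMSO and the second after treatment, and its log2 change was 0.68 (standard error 0.034, limma, Benjamini-Hochberg adjusted p = 1.3e-07).

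RPL5 and RPL9 of the 50S subunit did not pass the test on the deposited scale. RPL5 (AT4G01310), which binds the 5S ribosomal RNA, stood at 340.1, 361 and 354 FPKM in DMSO and at 349, 345 and 351 FPKM in NAE 18:3. The treated values fell inside the range of the controls, and the log2 change of -0.013 did not pass (standard error 0.030, limma, Benjamini-Hochberg adjusted p = 0.71). RPL9 (AT3G44890), which in bacteria lies at the foot of the L1 stalk, stood at 303, 317 and 331 FPKM in DMSO and at 305, 293 and 298 FPKM in NAE 18:3. Only the lowest control reached the treated range, and the log2 change was -0.087 (standard error 0.037, limma, Benjamini-Hochberg adjusted p = 0.058). Without DMSO replicate 1 it passed, at -0.12 (limma, Benjamini-Hochberg adjusted p = 0.016). On the other scales RPL9 was called lower, with log2 changes of -0.44, -0.15, -0.15 and -0.63 on the upper-quartile, quantile, TMM and equal-sum scales, and RPL5 was called lower on all of these but the quantile scale (-0.36, -0.073 and -0.55).

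A further 15 loci of the 50S subunit were higher, with log2 changes between 0.23 and 0.68. RPL1 (AT3G63490), of the mobile L1 stalk, rose from 398 ± 15.2 to 637 ± 2.97 FPKM, and RPL15 (AT3G25920), an inner large-subunit protein, from 393 ± 14.5 to 609 ± 11.8 FPKM. Both were also higher on the other 4 scales. RPL35 (AT2G24090), RPL6 (AT1G05190), RPL27 (AT5G40950), RPL4 (AT1G07320) and RPL3 (AT2G43030) had log2 changes of 0.59, 0.56, 0.56, 0.55 and 0.55. RPL4 lines the exit tunnel, RPL27 reaches the peptidyl transferase centre in bacteria, and RPL3 joins the subunit early in its assembly. Each of these kept its sign on every scale and lost its call with equal summed FPKM.

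RPL24 (AT5G54600), RPL21 (AT1G35680), RPL18 (AT1G48350), RPL34 (AT1G29070), RPL13 (AT1G78630) and RPL10 (AT5G13510) had log2 changes of 0.52, 0.50, 0.47, 0.44, 0.41 and 0.38. RPL18 is a 5S ribosomal RNA binder, and RPL10 forms the base of the stalk that carries RPL12. With equal summed FPKM their changes were -0.021, -0.037, -0.073, -0.10, -0.13 and -0.16, of which the last 4 were called lower. The calls of RPL13 and RPL10 were also lost with upper-quartile scaling, at 0.056 and 0.025. RPL28 (AT2G33450) and RPL11 (AT1G32990), the latter of the stalk base, were the smallest of the rises, at 0.29 and 0.23. Both turned negative with upper-quartile scaling, at -0.063 and -0.12, and with equal summed FPKM, at -0.25 and -0.31.

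The set holds 2 pairs of like-named genes, those of RPL12 and RPL19. RPL12 is the stalk protein that draws translation factors to the ribosome and is present in several copies per ribosome in bacteria. The joined locus of RPL12-A and RPL12-C was the most abundant of the set in both groups, at 1019, 1065 and 1008 FPKM in DMSO and at 1571, 1404 and 1634 FPKM in NAE 18:3. The groups were apart, and the log2 change was 0.57 (standard error 0.054, limma, Benjamini-Hochberg adjusted p = 1.1e-05), but it turned to -0.22 with quantile normalization.

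The transcripts listed under each copy give its own level, with the reservation that fragments of near-identical copies can be assigned to either. RPL12-A stood at 489.8, 520.3 and 465 FPKM in DMSO and at 976, 895 and 1028 FPKM in NAE 18:3, a log2 change of 0.97 (standard error 0.057, limma, Benjamini-Hochberg adjusted p = 2.7e-07). RPL12-C stood at 529, 545 and 544 FPKM in DMSO and at 595, 509.6 and 606 FPKM in NAE 18:3, and its groups overlapped. Its log2 change of 0.076 did not pass (standard error 0.060, limma, Benjamini-Hochberg adjusted p = 0.26). The copies were at similar levels in DMSO, and RPL12-A lay above RPL12-C in all 3 treated libraries. The difference between their changes was not tested. The copies were fitted on the deposited scale alone, so how their calls stand on the other scales was not tested either.

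RPL19, a protein of the subunit interface, is encoded by RPL19-1 (AT5G47190) and RPL19-2 (AT4G17560), and neither was called higher. RPL19-1 stood at 304, 305 and 324 FPKM in DMSO and at 320.2, 312 and 315 FPKM in NAE 18:3, the treated values lying within those of the controls. Its log2 change of 0.022 did not pass (standard error 0.033, limma, Benjamini-Hochberg adjusted p = 0.55), and it was -0.33, -0.040, -0.038 and -0.52 on the upper-quartile, quantile, TMM and equal-sum scales, called lower on the first and the last. RPL19-2, the less abundant of the pair, stood at 158, 152 and 161 FPKM in DMSO and at 153, 139.6 and 143 FPKM in NAE 18:3. It was the lowest locus of the set after treatment, and the groups overlapped by 1 library. The log2 change of -0.11 passed narrowly (standard error 0.042, limma, Benjamini-Hochberg adjusted p = 0.033). This call was lost without the mean-variance trend and when DMSO replicate 1, DMSO replicate 3, NAE 18:3 replicate 2 or NAE 18:3 replicate 3 was left out, where the adjusted p was between 0.075 and 0.11.

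All 5 plastid-specific ribosomal proteins were higher on the deposited scale, with PSRP2, PSRP3 and PSRP4 turning negative with equal summed FPKM. PSRP1 (AT5G24490), a homolog of the bacterial factors that hold idle ribosomes in an inactive form, showed the largest change of the set. It stood at 67.0, 65.3 and 67.5 FPKM in DMSO and at 489, 478 and 489.7 FPKM in NAE 18:3. The controls and the treated libraries each agreed within a few percent, and the level was 7.29 times as high after treatment. The log2 change was 2.85 ± 0.029 (standard error, limma, Benjamini-Hochberg adjusted p = 2.5e-11), and it was between 2.31 and 2.79 on the other 4 scales. In DMSO PSRP1 was the lowest of the 37 loci, and after NAE 18:3 it stood at rank 25.

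PSRP5 (AT3G56910), a plastid-specific protein of the 50S subunit, stood at 504, 482 and 512 FPKM in DMSO and at 921, 927 and 957 FPKM in NAE 18:3. It was called higher on all 5 scales, with a log2 change of 0.90 on the deposited one (standard error 0.032, limma, Benjamini-Hochberg adjusted p = 1.5e-08). PSRP3 (AT1G68590), of the 30S subunit, stood at 285, 278 and 288 FPKM in DMSO and at 405, 411 and 419 FPKM in NAE 18:3. Its groups were apart, and its log2 change was 0.54 (standard error 0.028, limma, Benjamini-Hochberg adjusted p = 2.0e-07), or -0.0033 with equal summed FPKM.

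PSRP4 (AT2G38140), a small THX-like protein of the 30S subunit, stood at 459.7, 483 and 492 FPKM in DMSO and at 658, 618 and 673 FPKM in NAE 18:3. The lowest treated library lay above the highest control, and the log2 change was 0.44 (standard error 0.040, limma, Benjamini-Hochberg adjusted p = 9.0e-06), or -0.098 with equal summed FPKM. PSRP2 (AT3G52150), a 30S protein with RNA-binding domains, stood at 217, 218 and 224 FPKM in DMSO and at 295, 277 and 277 FPKM in NAE 18:3. It remained among the least abundant members, and its log2 change was 0.36 (standard error 0.034, limma, Benjamini-Hochberg adjusted p = 1.1e-05). It was 0.010 and not called with upper-quartile scaling, and -0.18 with equal summed FPKM.

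**Figure D2:**
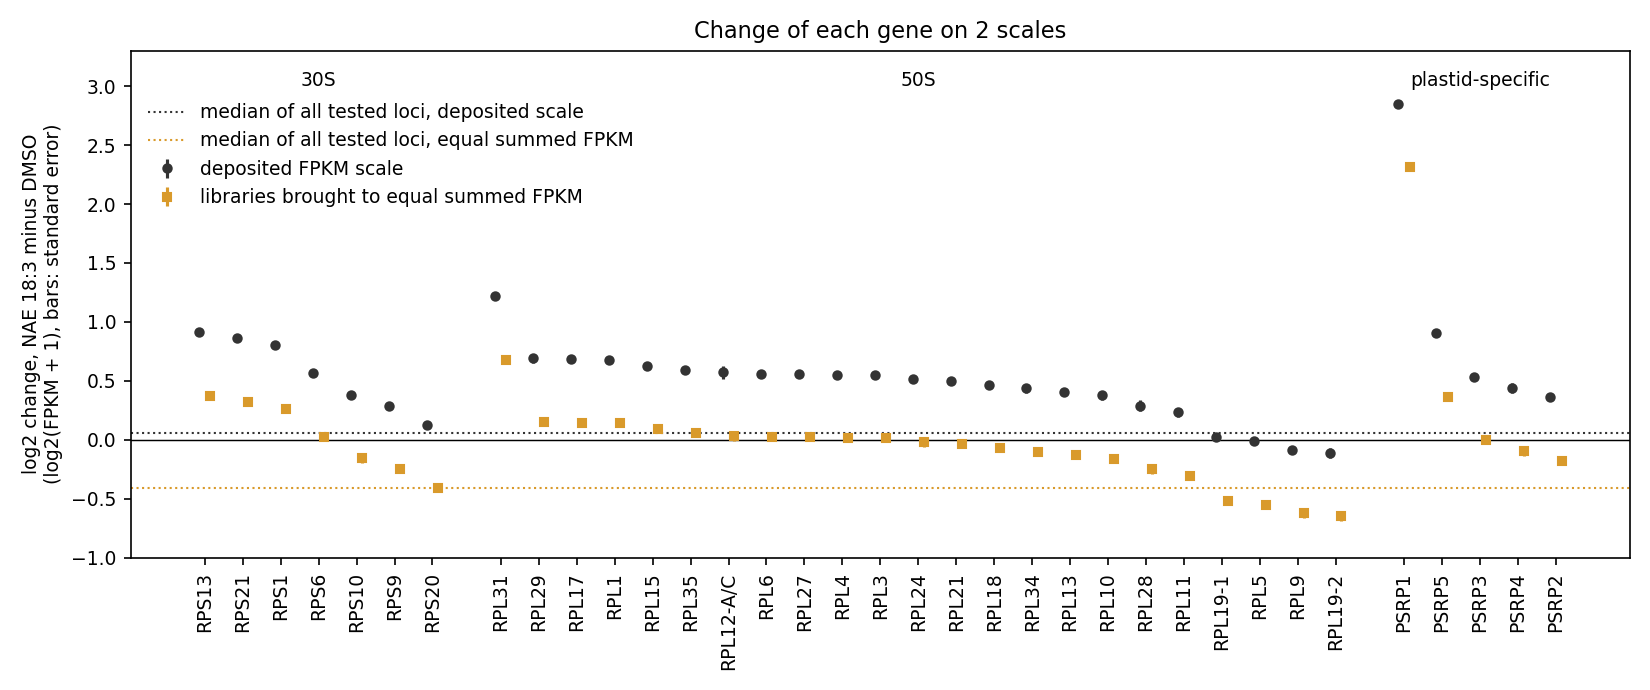
Log2 change (NAE 18:3 minus DMSO, on log2(FPKM + 1), bars are standard errors of the limma fit) of each locus on the deposited scale (black circles) and with the libraries brought to equal summed FPKM (orange squares) (2 of the 37 loci are not shown); dotted lines are the medians of all tested loci, 0.057 and -0.41. PSRP1 at 2.85 and RPL31 at 1.22 stand above zero on both scales, and of all 37 loci 32 are called higher on the deposited scale and 16 lower on the equal-sum scale.

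The share of the transcripts held by the set differed by less than the spread between libraries. The members' summed level was 14713 ± 189 FPKM in DMSO and 21442 ± 441 FPKM in NAE 18:3 (mean ± SD, n = 3 each), 1.46 times as high, beside a rise of 1.45 times in the summed FPKM of a library without the 2 extreme loci. Without those loci, the members' share of the summed FPKM was 2.12% ± 0.035 in DMSO and 2.13% ± 0.016 in NAE 18:3. The ranges overlapped, and with the extreme loci the shares were 1.98% ± 0.27 and 2.05% ± 0.13. These shares are given as values, with no test. The 10 most abundant loci of a library, without the extreme ones, held 8.43% ± 0.042 of its summed FPKM in DMSO and 15.1% ± 0.26 in NAE 18:3, and the part of this difference in the members' changes was not tested.

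The balance of the subunits, which no scaling by a single factor per library can alter, was also close. The summed level of the 50S loci was 2.69 ± 0.029 times that of the 30S loci in DMSO and 2.72 ± 0.035 times in NAE 18:3, with overlapping libraries. The plastid-specific proteins are in neither sum, although some belong to one of the subunits. The level of PSRP1 was 0.169 ± 0.0028 of the median of the other 36 loci in DMSO and 0.853 ± 0.01 in NAE 18:3, so this ratio was 5.04 times as high and its groups were far apart.

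**Figure D3:**
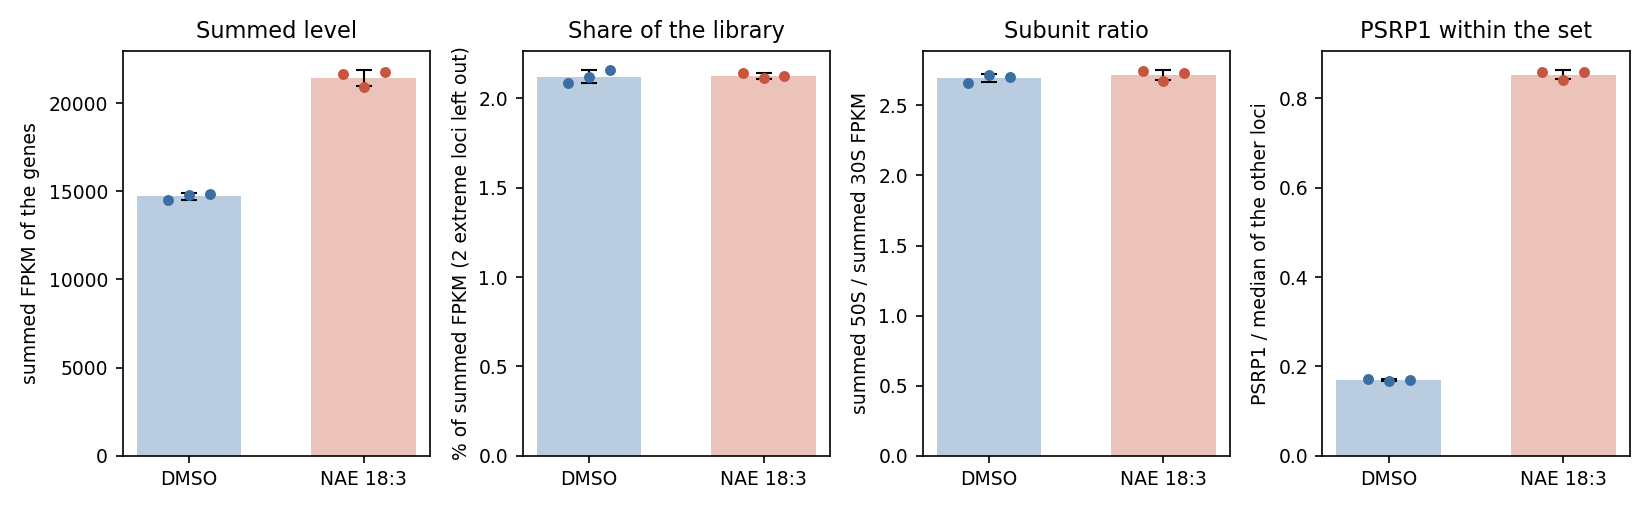
Summaries of the set in each library (points) with group means (bars) and standard deviations (whiskers): the summed FPKM of the 37 loci, their share of the summed FPKM without 2 extreme loci, the ratio of summed 50S to summed 30S level (plastid-specific proteins in neither), and the level of PSRP1 over the median of the other loci. The summed level differs between the groups on the deposited scale, the share (2.12% and 2.13%) and the subunit ratio (2.69 and 2.72) overlap, and the PSRP1 ratio goes from 0.169 to 0.853.

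The order of the genes was largely kept. Spearman's rho between the mean levels in DMSO and in NAE 18:3 was 0.79 over the 37 loci, a description of levels measured in the same 6 libraries on the same genes. The median member stood above 98.4% of all tested loci in DMSO and above 98.8% in NAE 18:3, and PSRP1 stood above 90.7% and 98.7%. The level varied little between libraries of a group, with a coefficient of variation of 2.86% for the median locus in DMSO and 1.93% in NAE 18:3, and at most 4.82% and 7.71%. Around their mean, the 36 loci other than PSRP1 had a coefficient of variation of 35.2% ± 1.3 in a DMSO library and 41.4% ± 1.9 in an NAE 18:3 library (mean ± SD, n = 3 each). The ranges of these libraries did not overlap, whereas with PSRP1 included the values were 38.2% ± 1.2 and 41.1% ± 1.9 and the ranges overlapped.

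Some members bear an embryo-defective (EMB) name in the TAIR10.1 annotation, given to genes whose loss arrests the embryo. Among them were RPL31, RPS13, RPL1, RPL6, RPL4, RPL18, RPL13 and RPL10. All 9 were higher on the deposited scale, as were 32 of all 37 members and 44.1% of all tested loci. The log2 changes of the 9 ran from 0.38 to 1.22, with a median of 0.56. The other 28 loci had a median of 0.51, with 23 higher and 1 lower. The difference between the named genes and the others was not tested. RPL18, RPL13 and RPL10 of the named genes were negative with equal summed FPKM, and RPL6 and RPL4 were not called there.

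Within some loci the make-up of the transcripts differed between the groups. For 12 of the member loci the assembly listed more than 1 transcript with a mean above 1 FPKM, and the share of the locus level held by the leading one in DMSO did not overlap between the groups at 8 of them. Over all 6207 such loci this was so for 40.3%, and the median size of the change was 8.93 percentage points, against 9.18 for the members. Shares within a locus cannot be changed by scaling with 1 factor per library, and they were taken on the deposited scale alone. They rest on how Cufflinks divided fragments among assembled transcripts. Several of the entries carry the same TAIR transcript name, so that a shift between them need not be a shift between annotated isoforms. At the joined RPL12 locus, counted among the 8, the leading transcript is that of RPL12-C. Its share, with means of 52.3% in DMSO and 37.1% in NAE 18:3, is therefore a share between 2 genes.

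The largest shift was that of RPS1, whose leading transcript held 86.2%, 88.8% and 91.2% of the locus in DMSO and 70.7%, 67.5% and 69.8% in NAE 18:3. The leading transcript rose from 237 ± 3.21 FPKM to a mean of 323 FPKM, and a second entry under the same TAIR transcript went from a mean of 30.2 to 143 FPKM. In PSRP2 the share of AT3G52150.1 was 66.2%, 58.0% and 66.4% in DMSO and 44.4%, 48.2% and 43.0% in NAE 18:3. That transcript had mean levels of 139.8 and 128 FPKM, while AT3G52150.2 had means of 80.1 and 155 FPKM, so the difference of the locus lay in the latter. These changes in single transcripts were not tested.

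RPL19-1, whose locus level did not pass, had a leading share of 74.9% ± 2.8 in DMSO and 62.8% ± 2.8 in NAE 18:3. In RPS10 the share was 67.2% ± 2.3 and 57.1% ± 1.7. In RPL1 it went the other way, from 70.8% ± 0.47 to 79.1% ± 3.5, and in RPL4 it was 89.5% ± 0.68 and 84.9% ± 1.5. For RPS10 the level of AT3G13120.2 was placed on 1 entry in NAE 18:3 replicate 1 (188.9 FPKM) and on another in NAE 18:3 replicates 2 and 3 (175 and 185 FPKM). The other entry stood near 0 in each case.

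**Figure D4:**
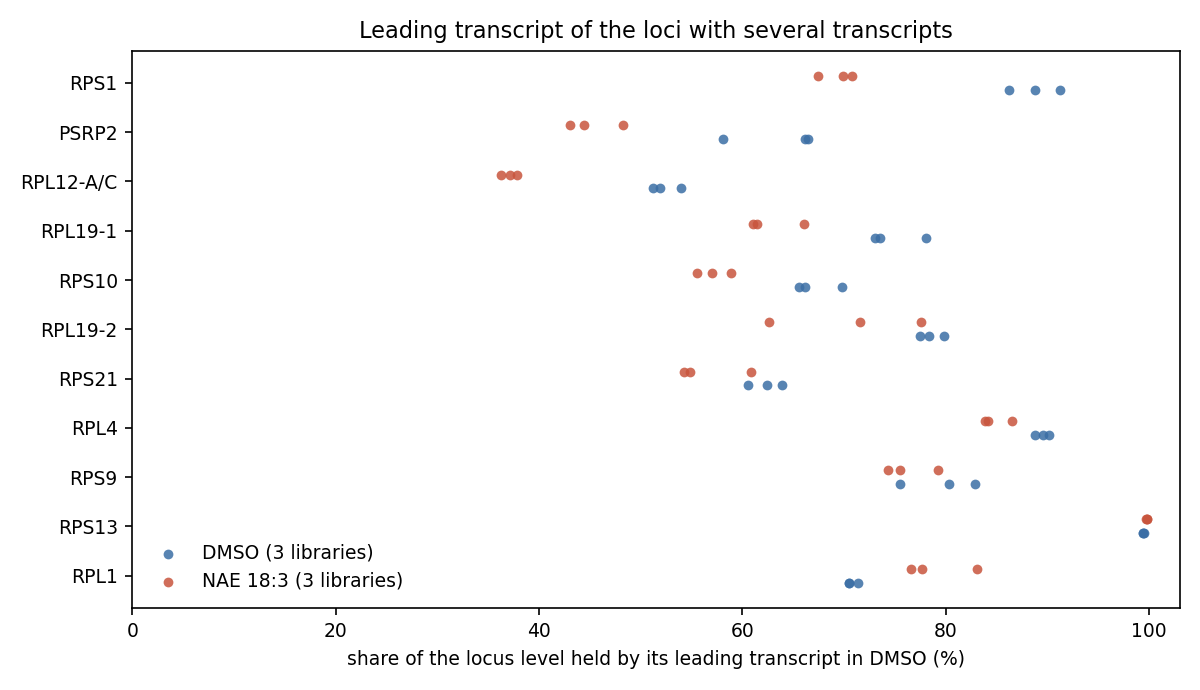
Share of the locus level held by the transcript that leads in DMSO, in percent, for member loci with several transcripts (1 of the 12 is not shown), in the 3 DMSO (blue) and 3 NAE 18:3 libraries (red). RPS1 goes from 86.2% to 91.2% in DMSO down to 67.5% to 70.7%, PSRP2 and the RPL12 locus also separate, and RPS9, RPS21 and RPL19-2 overlap. The RPL12 locus joins 2 genes, and its leading transcript is that of RPL12-C.

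Other genes of plastid gene expression moved in both directions. The list of plastid translation factors holds genes of families that start, extend and end the peptide chain. Of its 14 loci, 9 were higher, 4 lower and 1 not called. The median log2 change was 0.60 (0.067 with equal summed FPKM, where 7 were higher and 6 lower). IF3-2 (AT4G30690), an initiation factor, rose from 18.1 ± 2.04 to 90.8 ± 2.22 FPKM, and PrfB3 (AT3G57190), of the release factor family, from 5.45 ± 0.53 to 15.3 ± 0.51 FPKM. The elongation factor EF-Ts (AT4G29060) fell from 233 ± 9.22 to 174 ± 1.56 FPKM, and the other initiation factor of this kind, IF3-1 (AT2G24060), from 69.3 ± 1.52 to 52.4 ± 2.18 FPKM.

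Of 14 tested loci of plastid ribosome assembly and ribosomal RNA processing, 12 were lower, 1 was higher and 1 was not called, with a median log2 change of -0.72. The RNA helicase gene RH22 (AT1G59990) fell from 32.9 ± 2.19 to 5.41 ± 0.29 FPKM, and RAP (AT2G31890), needed for 16S ribosomal RNA maturation, from 14.4 ± 0.97 to 2.15 ± 0.24 FPKM. The assembly factor RbfA (AT4G34730) was the member that rose, from 28.6 ± 0.3 to 35.5 ± 0.7 FPKM, and it was negative with upper-quartile scaling, quantile normalization and equal summed FPKM. Of 15 loci of the plastid RNA polymerase and its partners, 12 were lower, 1 was higher and 2 were not called, with a median of -1.47. FLN2 (AT1G69200), a fructokinase-like partner, fell from 55.4 ± 1.92 to 8.95 ± 0.26 FPKM, and FSD3 (AT5G23310), an iron superoxide dismutase of the same complex, from 80.9 ± 0.49 to 15.3 ± 1.9 FPKM. The transcription complex gene pTAC7 (AT5G24314) was the member that rose, with a log2 change of 0.31, and it too was negative with upper-quartile scaling, quantile normalization and equal summed FPKM.

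Ribosomal proteins of the other compartments were mostly lower. Of 96 tested loci described as cytosolic ribosomal proteins, 86 were lower, 9 were higher and 1 was not called, with a median log2 change of -1.82. This list was drawn by description and holds proteins that only share a ribosomal protein domain. Its largest fall, AT4G12600, went from 198 ± 5.31 to 17.8 ± 1.2 FPKM, and AT5G59240 from 9.01 ± 0.86 to 0.286 ± 0.12 FPKM. Its largest rises were those of AT3G14595, from 16.99 ± 0.48 to 94.5 ± 1.63 FPKM, and AT1G53560, from 8.55 ± 0.14 to 29.8 ± 3.15 FPKM. All 16 tested loci described as mitochondrial ribosomal proteins were lower, with a median of -1.20, among them AT3G59650, from 43.5 ± 1.46 to 7.06 ± 0.65 FPKM, and AT3G18240, from 22.4 ± 1.75 to 5.41 ± 0.058 FPKM. The medians of both lists stayed negative on the other 4 scales. The nuclear photosystem genes, whose protein products work beside those made on plastid ribosomes, were higher at 39 of 39 tested loci with a median of 1.68, and with quantile normalization at 32, with 4 lower. LHCB2.3 (AT3G27690) and LHCB2.1 (AT2G05100), light-harvesting proteins of photosystem II with close copies between which fragments may be misplaced, had the largest rises, of 2.74 and 2.49.

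**Figure D5:**
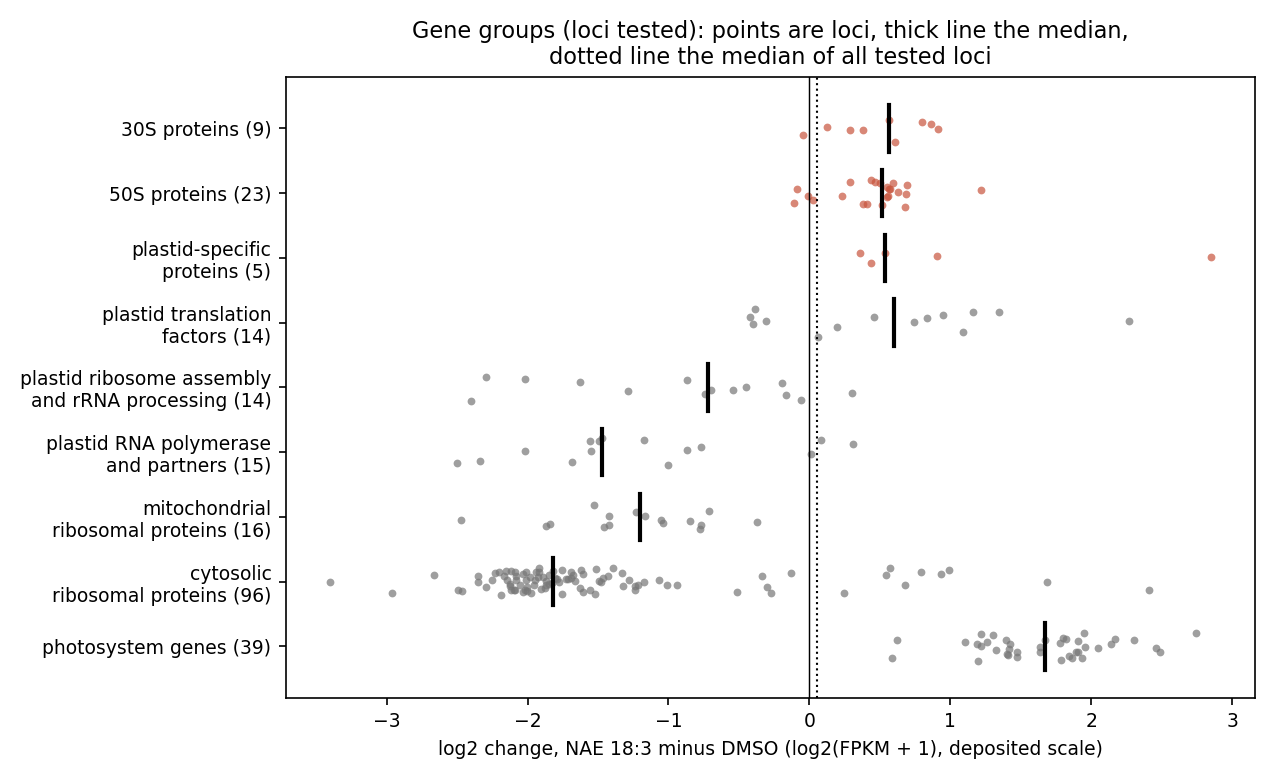
Log2 change (NAE 18:3 minus DMSO, deposited scale) of each tested locus (points) in the 3 groups of plastid ribosomal proteins and in the comparison lists, with the median of each list as a thick line and the median of all tested loci as a dotted line. The 3 groups lie at medians of 0.57, 0.52 and 0.54, near the plastid translation factors at 0.60, and at 0.026, -0.021 and -0.0033 with equal summed FPKM; mitochondrial and cytosolic ribosomal proteins lie at -1.20 and -1.82, and photosystem genes at 1.68.

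Markers of tissues moved with the treatment. Of 8 tested root markers 7 were lower. The summed level of all 9 root marker loci, with the untested locus included, was between 182 and 196 FPKM in the DMSO libraries. In the NAE 18:3 libraries it was between 68.5 and 75.3 FPKM. The root markers were uneven. AGP30 (AT2G33790), a root arabinogalactan protein, stood at 64.3 to 79.7 FPKM in DMSO and at 0.276 to 0.605 FPKM in NAE 18:3, whereas SCR (AT3G54220), a regulator of the root endodermis, stood at 25.1 ± 1.92 and 24.95 ± 1.32 FPKM. Of 10 tested loci of the 8 green tissue marker genes 9 were higher, and with quantile normalization 4 were higher and 3 lower. Quantile normalization gives loci of equal rank equal values, so CAB1 (means of 9918 FPKM in DMSO and 26509 FPKM in NAE 18:3) showed no change there. Those counts therefore follow in part from rank. The summed level of the 10 loci was between 39650 and 40998 FPKM in DMSO and between 85632 and 91088 FPKM in NAE 18:3. The part of these markers' changes in the members' changes was not tested.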

How the data were processed

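RNA-seq libraries of 6 seedling samples, 3 per group, were analysed. Per the submitters' processing notes, the authors used TopHat, Cufflinks and Cuffdiff and the TAIR9 build. Versions are not given in the sources used here. The deposited table holds FPKM of 61448 transcripts and 32424 loci in each library, and 4 merged columns were not used. Loci averaging 1 FPKM or more entered a limma fit of log2(FPKM + 1) (limma 3.58.1, R 4.3.3). Its design held the treatment alone, the empirical Bayes step used a mean-variance trend, and p-values were adjusted by Benjamini-Hochberg over all 18194 loci. A log2(FPKM + 1) change understates the change of low loci. The fit was tested on simulated data with 200 changed loci and no difference in scale between the libraries. That simulation does not bear on the choice of scale, nor on data in which 83.2% of loci are called. Whole fragments could not be recovered, so no count model was applied and no counting intervals are given.

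Products and EMB names were read from the TAIR10.1 annotation. As the builds differ, no coordinates or sequences are given, and the planned promoter motifs were not searched. Values per library are given for the plastid-specific proteins, the RPL12 and RPL19 pairs, the 3 largest and 3 smallest changes and the 2 highest levels of each subunit, and from each list the 2 largest rises and 2 largest falls among called loci. Of the 30S genes, 2 are counted in the totals but their own values are not reported here. The members and lists were chosen with earlier results of these data known. Of the root markers, 1 had a mean under 1 FPKM and was not tested, as were 10 loci described as cytosolic ribosomal proteins, 1 mitochondrial and 1 photosystem locus. Alternatives were other pseudocounts (0.1), filters (none, or 5 FPKM), scales, no trend, summed transcripts, joined loci left out, the replicate block, and each library left out. Equal summed FPKM was added after seeing the data. PSAT and PSAT1, which the symbol rule also took but which encode no photosystem protein, were left out of the photosystem list after the data were seen.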

Additional observations from a re-analysis of the deposited data

How the results depend on the processing

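With equal summed FPKM, a scale added after seeing the data, 10 members were higher and 16 lower, 3 of the 30S and 5 of the 50S loci were higher, and the median log2 change was -0.0033. With upper-quartile scaling 8 members were lower, 5 of the 30S loci were higher and the median was 0.18. With quantile normalization 4 were lower with a median of 0.39, and with TMM factors 4 were lower with a median of 0.47. The count of lower members was 0 without the trend and 0 to 1 with single libraries left out. The median log2 change was 0.52 to 0.55 with single libraries left out. Log2 changes that turned in sign with upper-quartile scaling were those of RPS9 (-0.062), RPL28 (-0.063), RPL11 (-0.12), RPS20 (-0.23) and RPL19-1 (-0.33), and with quantile normalization those of the RPL12 locus (-0.22) and RPL19-1 (-0.040), and with TMM factors that of RPL19-1 (-0.038). With equal summed FPKM they were those of PSRP3 (-0.0033), RPL24 (-0.021), RPL21 (-0.037), RPL18 (-0.073), PSRP4 (-0.098), RPL34 (-0.10), RPL13 (-0.13), RPS10 (-0.16), RPL10 (-0.16), PSRP2 (-0.18), RPS9 (-0.25), RPL28 (-0.25), RPL11 (-0.31), RPS20 (-0.41) and RPL19-1 (-0.52). The upper-quartile, TMM and equal-sum scales lower all NAE 18:3 values against DMSO values by construction, and for the quantile scale the cause was not tested. Calls of single members were otherwise lost for 8 and gained for 3 with equal summed FPKM, lost for 4 (RPL13, RPS10, RPL10 and PSRP2) and gained for 3 with upper-quartile scaling, lost for 1 (RPS20) and gained for 2 with quantile normalization, and gained for 3 with TMM factors.

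The pseudocount, the filters and the replicate block changed no member's call (with the replicate block, 32 were higher and 1 lower, with a median of 0.54), nor did summed transcripts or leaving out joined loci for the 36 loci other than that of RPL12. Summed per gene on the deposited scale, the transcripts of RPL12-A were called higher and those of RPL12-C were not called. Libraries with the same replicate number did not deviate together (correlations -0.013, -0.0087 and 0.018), and not every library correlated best with its own number. No effect shared by replicate number was seen, but this cannot show whether the samples were grown or processed in pairs. Without extreme loci, the difference in the members' share of summed FPKM was 0.0044 percentage points, against 0.061 with them, and it was -0.094 to 0.15 with single libraries left out. The sign of that difference is therefore not fixed. Scaling by 1 factor per library cannot change the share or the subunit ratio, and neither was recomputed for it. The unknown depth limits the precision most at low loci, and all members were well above the filter.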
